A study of Mus musculus with 4 samples.

Results

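Secreted phospholipases A2 were followed as a gene family in laser-captured mouse Paneth cells. The family was taken as 9 genes, Pla2g1b, Pla2g2a, Pla2g2d, Pla2g2e, Pla2g2f, Pla2g5, Pla2g10, Pla2g12a and Pla2g12b, out of 18193 genes that have a probe set of their own on the array. They were chosen by name as family members, with earlier results of these data known. All 9 were represented, by 14 of the 45101 probe sets. Pla2g1b had 4 probe sets, Pla2g2d and Pla2g2f had 2 each, and the other 6 genes had 1. For a gene with several, the probe set with the highest mean signal over the 4 arrays stood for the gene.

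The cells came from male NMRI mice 8 weeks old. The conventionalized mice had been colonized with a gut microbiota for 10 days, and the germ-free mice were kept without microbes until they were killed. RNA of 3 mice was pooled per group. From each pool 2 portions of 10 ng were amplified, and each went onto its own array. The 2 arrays of a group were therefore technical repeats of 1 pool, the spread between mice was not measured, and a p-value here sets the pools against amplification and array error only. The comparison asked what colonization does to gene expression in Paneth cells.

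Secreted phospholipases A2 are small, calcium-dependent enzymes that cut a fatty acid from the middle carbon of a membrane phospholipid and leave a lysophospholipid behind. The family is best known in the small intestine for Pla2g2a, which Paneth cells store in their granules and which kills Gram-positive bacteria by breaking up their membranes. Where the freed fatty acid is arachidonic acid, cyclooxygenases and lipoxygenases turn it into prostaglandins and leukotrienes.

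The Paneth cell label was set against its markers first. Of 16 measured Paneth markers, 13 lay above background on both conventionalized arrays and 13 on both germ-free arrays. Lyz1, the Paneth lysozyme, read 80185 and 249594 on the conventionalized arrays, against 24112 and 51494 on the germ-free arrays. The summed signal of the marker list was 380039 and 902077 in conventionalized cells, against 84908 and 174366 in germ-free cells. The highest signal of any probe set also differed, at 154028 and 370346 on the conventionalized arrays, against 59888 and 63719 on the germ-free arrays. Fabp2, an absorptive enterocyte marker named after its values were seen, read 51528 and 142558, against 20981 and 45252. The part of the scale of bright signals in the Paneth sums was not tested. Markers of neighbouring epithelium were present as well, with 8 of 8 goblet markers above background in both groups and 12 (conventionalized) and 14 (germ-free) of 14 absorptive enterocyte markers. The arrays were uneven: 29.9% (conventionalized) and 21.1% (germ-free) of the 22491 probe sets tested lay over 2-fold apart between duplicates. Over these probe sets, which are no replicates of each other, conventionalized replicate 2 had Pearson correlations of only 0.754 to 0.779 with the other arrays. Fluidics station 2 had washed both conventionalized arrays and station 1 both germ-free arrays, so the stations cannot be told apart from the groups.

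Detection of the family was close to that of all genes in conventionalized cells. Background was set on each array by 44 probe sets for olfactory receptors, sensory genes with no known use in crypt epithelium, as the 95th percentile of their signals. It came to 193.2 and 424.7 on the conventionalized arrays, against 304.2 and 143.4 on the germ-free arrays. With 44 probe sets this level is coarse. By it, 2 of the 9 genes, Pla2g5 and Pla2g12b, were above background on both conventionalized arrays, where 25.4% of all 18193 genes were. On both germ-free arrays 1 of 9, Pla2g12b, was above it, where 36.3% of all genes were. Pla2g2a and Pla2g10 passed on 1 array of each group, Pla2g2d on 1 germ-free array, and Pla2g1b, Pla2g2e, Pla2g2f and Pla2g12a on none. The level of conventionalized replicate 2 decided part of this count, which was 4 of 9 in conventionalized cells by the other array alone. Likewise the count in germ-free cells was 4 of 9 by germ-free replicate 2 alone.

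**Figure D1:**
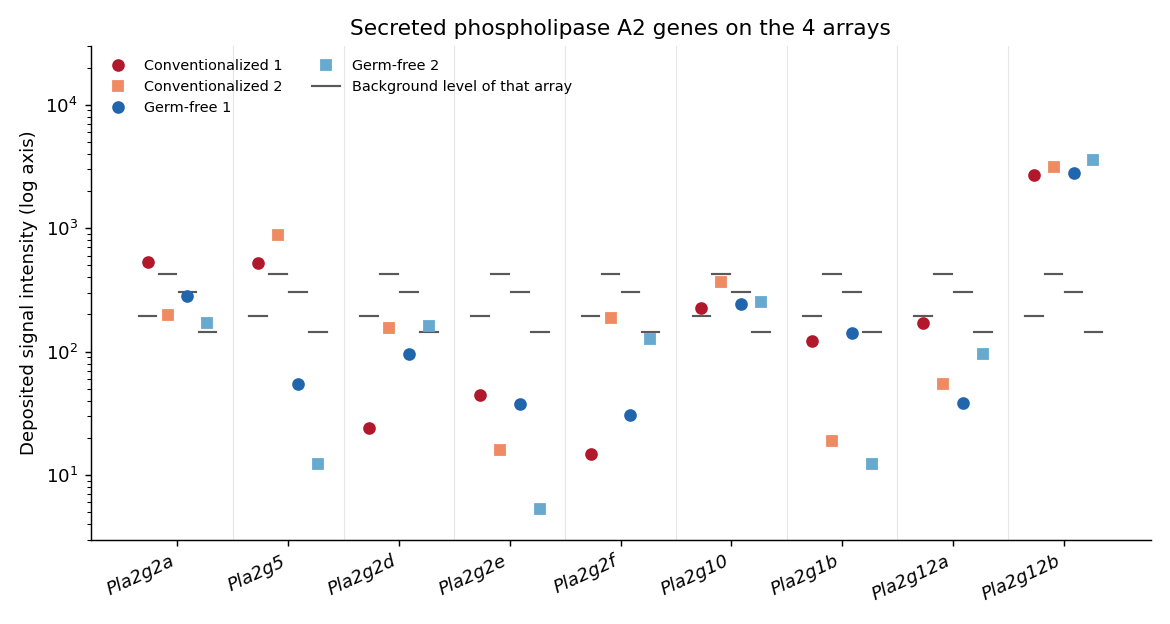
Deposited signal intensity (log axis) of the standing probe set of each of the 9 genes on the 2 conventionalized arrays (red and orange) and the 2 germ-free arrays (dark and light blue), with a short grey line at the background level of that array. Pla2g12b lies above the line on all 4 arrays, and Pla2g5 on both conventionalized arrays and on neither germ-free array.

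Pla2g5 was the one member called, at a limma adjusted p under 0.05, of the 4 genes tested. It encodes a secreted phospholipase that acts well on phosphatidylcholine and is known in mice from macrophages and heart. Its single probe set (1417814_at, gene identifier 18784) read 526 and 879 on the conventionalized arrays, against 54.6 and 12.4 on the germ-free arrays. Both conventionalized signals were above background, neither germ-free signal was, and the groups did not overlap. This pattern, above background on both conventionalized and on no germ-free array, was seen for 40 of 18193 genes, or 0.22%. As the germ-free signals lie below background, their size is only bounded. With each germ-free array set at its background level, a bound computed after the data were seen, the fold was at least 3.26, the geometric mean being 679.9 in conventionalized cells against a bound of 208.9 in germ-free cells.

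On the scale of log2(signal + 32), used for all tests, Pla2g5 averaged 9.48 ± 0.50 in conventionalized and 5.95 ± 0.68 in germ-free cells (SD, n = 2 arrays each). The difference was 3.52 ± 0.68 (SE; limma adjusted p = 3.2e-04), with a 95% interval of 2.19 to 4.86. Conventionalized duplicates lay 0.71 apart, less than the difference between the pools. The germ-free duplicates, 0.96 apart, were both below background, so their gap and SD do not measure a spread of expression. The difference and its interval therefore hold on this scale only. The lower bound given above is 1.70 on the log2 scale of the signal itself, below the lower end of the interval. The adjusted p was taken over all 22491 probe sets, of which 0.333% were called in either direction and 0.12% were called higher at an adjusted p under 0.05. The 11.5-fold that this scale gives depends on the pseudocount and is no bound. Pla2g5 entered the test, which required a mean signal above 113.9 over the 4 arrays, through its conventionalized signals.

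The call on Pla2g5 depended on conventionalized replicate 2. Without that array the difference was 3.17 ± 1.00 and the limma adjusted p was 0.269. With any other array left out it was called, at differences of 3.04 to 4.01. It was not called either when limma's standard error did not follow a trend on mean signal (limma adjusted p = 0.588), a fit that called 0 probe sets in all, with 975 at an unadjusted p under 0.05. Among the brightest 25% of probe sets the limma adjusted p was 0.28. In every one of the 13 alternatives run the difference was above 0.

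**Figure D2:**
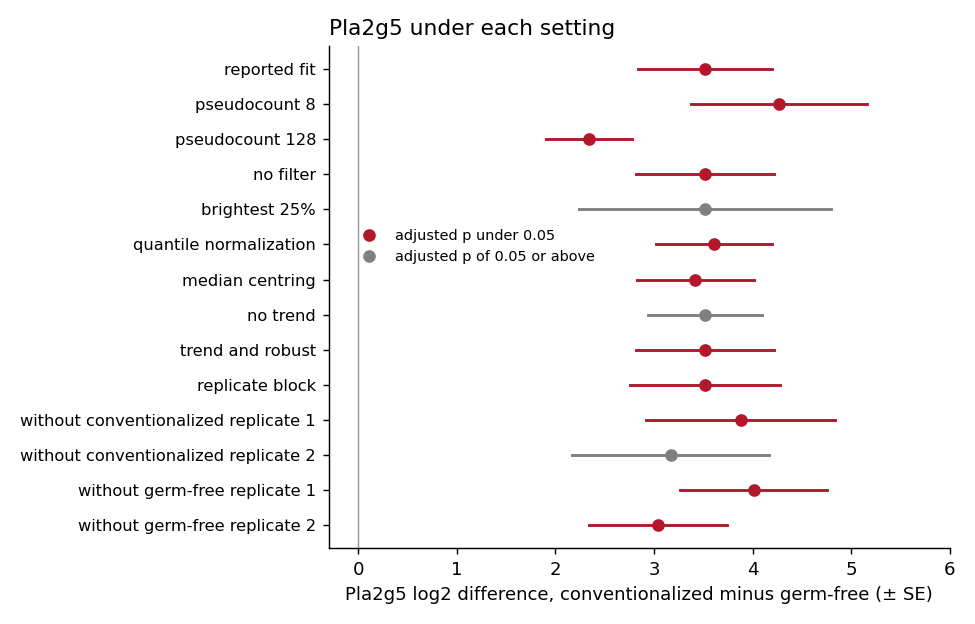
Difference of Pla2g5 in log2(signal + pseudocount), conventionalized minus germ-free, with its standard error, in the reported fit and under 13 alternatives. Red points were called at a limma adjusted p under 0.05. The values run from 2.34 with the highest pseudocount to 4.27 with the lowest, and 3 settings lose the call.

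Marker lists of some cell types had medians above 0, and those of others had medians below 0. The latter were enteroendocrine (-0.43), fibroblast (-0.24), smooth muscle (-0.61), endothelial and blood (-0.61) and crypt base stem (-0.22) markers. Those of exocrine pancreas (-0.07) and absorptive enterocytes (-0.53) were below 0 too. Some of the markers counted were above background on no array. Of 14 tested Paneth markers 12 lay above 0 (median 1.84) and 2 were called higher, the antibacterial lectin Reg3g (4.90 ± 0.50; limma adjusted p = 2.9e-18) and Mptx1 (2.74 ± 0.48; limma adjusted p = 2.5e-05). Of 8 goblet markers 6 lay above 0 (median 0.68) and 1 was called higher, the goblet cell protein Retnlb (3.53 ± 0.51; limma adjusted p = 2.3e-08). With quantile normalization the Paneth median was 1.14 and the goblet median 0.26. The goblet list summed to 131088 and 220911 in conventionalized cells, against 51179 and 93293 in germ-free cells. The largest part of that sum is Zg16, at 57301 and 145448 in conventionalized cells, against 19257 and 43750 in germ-free cells. The 2 goblet markers below 0 were Clca1 (-1.29 ± 0.42) and Muc2 (-0.34 ± 0.49). Zg16, Clca1 and Muc2 were named after their values were seen. Summed signals of some immune cell markers were also higher on both conventionalized arrays than on both germ-free arrays. The macrophage, dendritic cell and granulocyte list summed to 19958 and 18436 in conventionalized cells, against 8746 and 9645 in germ-free cells. All 5 of its tested members, of 11 measured, lay above 0 and 0 were called, with 1 at an unadjusted limma p under 0.05. Of these members Adgre1 and Mrc1, the latter named after its values were seen, were above background on no array. Their sign carries no measured change, and the groups overlapped for Csf1r as well. Most of that sum is Lyz2, a lysozyme listed here as a macrophage marker, and the cells that gave its signal were not tested. Without Lyz2, a choice made after its values were seen, the sums were 4027 and 3522 in conventionalized cells, against 3119 and 2683 in germ-free cells. The 5 B and plasma cell markers summed to 7605 and 9368 in conventionalized cells, against 2053 and 2314 in germ-free cells, and 1 of them, the IgA constant region Igha, was called higher. Of its 3 tested members 2 lay above 0, and the B cell marker Ms4a1, named after its values were seen, read 154.3 and 9.2 in conventionalized cells, against 300.3 and 174.6 in germ-free cells. Most of that sum is Igha. Without it, also chosen after its values were seen, the 4 others summed to 1332 and 1380 in conventionalized cells, against 1059 and 669.3 in germ-free cells. The 7 T and innate lymphoid markers summed to 1253 and 1704 in conventionalized cells, against 1047 and 546.0 in germ-free cells, with 0 called and 1 at an unadjusted limma p under 0.05. Of its 4 tested members 3 lay above 0, among them Cd4, which was above background on no array, and Gzmb was at -0.44 ± 0.87. The T cell genes Cd3d, Cd3e and Cd3g, named after their values were seen, were under the signal filter and below background on all arrays. No marker of any list was at 0 in these files. The part of these cells in the Pla2g5 signal was not tested. In captured tissue, a change in the number of cells of a type cannot be told apart from a change in RNA per cell.

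Reference sequence upstream of Pla2g5 is shown because it was the member called, and that of Pla2g12b because it was above background on every array. RefSeq's promoter table (GRCm38.p6) held 9 windows for 8 of the 9 genes, all but Pla2g2a. Pla2g5 has 2 annotated starts, both on the minus strand of chromosome 4, with the 250 bases before them at chr4:138863470-138863719 and chr4:138819258-138819507. The 250 bases before the start of Pla2g12b, on the plus strand, are chr10:59403435-59403684. Bases run 5′ to 3′ up to the start, and capitals mark matches to the motifs searched.
Pla2g5 first start: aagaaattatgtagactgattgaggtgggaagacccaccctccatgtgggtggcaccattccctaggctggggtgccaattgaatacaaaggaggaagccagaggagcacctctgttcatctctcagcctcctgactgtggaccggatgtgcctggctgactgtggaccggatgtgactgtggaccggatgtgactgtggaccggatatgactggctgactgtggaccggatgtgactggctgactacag
Pla2g5 second start: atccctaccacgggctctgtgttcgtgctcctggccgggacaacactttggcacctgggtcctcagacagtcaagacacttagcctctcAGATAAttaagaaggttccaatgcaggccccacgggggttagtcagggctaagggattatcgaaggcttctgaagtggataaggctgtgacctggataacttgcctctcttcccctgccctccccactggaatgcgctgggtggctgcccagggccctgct
Pla2g12b: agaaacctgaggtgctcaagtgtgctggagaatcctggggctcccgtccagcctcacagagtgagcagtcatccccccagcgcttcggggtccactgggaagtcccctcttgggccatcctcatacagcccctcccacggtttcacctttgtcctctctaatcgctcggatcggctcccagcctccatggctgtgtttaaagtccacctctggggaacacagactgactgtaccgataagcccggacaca

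Motif letters were searched on both strands. TATAAA stood for the TATA box. Sites of GATA factors, which are active in intestinal epithelium, were searched as AGATAA. Sites of the TCF/LEF factors of the Wnt pathway were searched as ATCAAAG. The second Pla2g5 window held 1 GATA match, 161 to 156 bases before the start, and 9.99% of the 32851 windows in the table held one. The first Pla2g5 window and the Pla2g12b window held none of these letters. The TATA letters were in 12.4% of all windows and the TCF/LEF letters in 3.21%. No match overlapped another, and these are matches of letters only.

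Pla2g2a, the antibacterial enzyme of Paneth granules, was not called. Its probe set (1450128_at, gene identifier 18780) read 534.5 and 197.7 on the conventionalized arrays, against 284.8 and 171.0 on the germ-free arrays. One conventionalized array was above both germ-free arrays and the other lay between them, so the groups overlapped. The difference was 0.51 ± 0.55 (limma adjusted p = 0.999), with a 95% interval of -0.57 to 1.58. Duplicate conventionalized arrays lay 1.30 apart on the log2 scale, more than the pools did. Leaving out conventionalized replicate 2 gave a difference of 1.16, and leaving out conventionalized replicate 1 turned it to -0.14. The gene table, made from strain C57BL/6J, lists Pla2g2a as a transcribed pseudogene, and C57BL/6 mice are known to carry a frameshift in it. The sources used here do not give the allele that these NMRI mice carried.

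The 3 genes whose deviations from their own mean over the 4 arrays were nearest to those of Pla2g2a, among 12112 compared, were Cenpq, Ubac1 and Eif2ak1. Their root mean square differences from it were 0.053, 0.054 and 0.10 on the log2 scale. Each was high on conventionalized replicate 1, as Pla2g2a was, and with 4 arrays many genes share such a shape.

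Pla2g2a and Pla2g5 are neighbours. In the gene table, chromosome 4 carries Pla2g2c, Pla2g2f, Pla2g2d, Pla2g5, Pla2g2a and Pla2g2e in this order, between Ubxn10 and Otud3, and Pla2g2a lies within the span given to Pla2g5. Of the genes of this run with a probe set, Pla2g5 alone was called, with and without the signal filter. Pla2g2c, a relative outside the 9, read 222.1 and 367.4 in conventionalized cells, against 336.5 and 214.5 in germ-free cells, a difference of 0.08 ± 0.54. Otud3, the flanking gene on one side, differed by -0.46 ± 0.44 (limma adjusted p = 0.999). Ubxn10, on the other side, read 103.9 and 34.1 in conventionalized cells, against 199.5 and 139.9 in germ-free cells, below background on all 4 arrays.

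**Figure D3:**
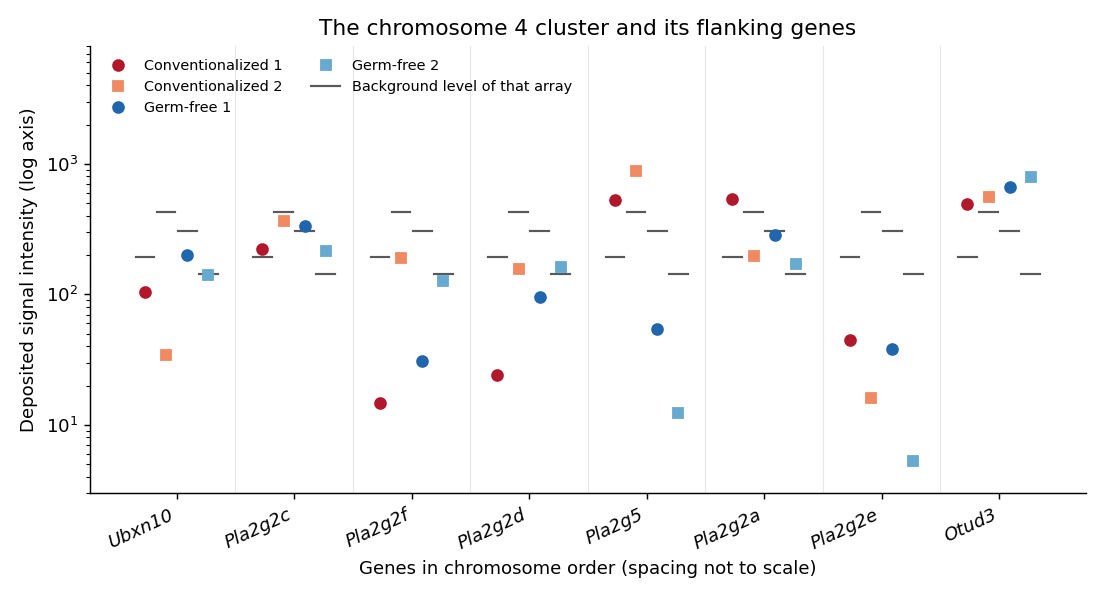
Deposited signal intensity (log axis) of genes of the chromosome 4 cluster and its flanks, in chromosome order and not to scale, on the conventionalized (red and orange) and germ-free (blue) arrays, with grey lines at each array's background level. Among the family genes Pla2g5 is the one whose conventionalized points are both above and germ-free points both below the line. Gm13030, which lies between Pla2g2a and Pla2g2e, has no probe set here.

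The remaining group II enzymes of the cluster were dim. Pla2g2d, known in mice from dendritic cells of lymphoid organs, read 23.9 and 155.3 on the conventionalized arrays, against 96.0 and 162.6 on the germ-free arrays. Pla2g2e, described in mouse hair follicles and fat, read 44.8 and 16.0 in conventionalized cells, against 37.9 and 5.3 in germ-free cells. Pla2g2f, an enzyme of mouse epidermis, read 14.8 and 188.1 in conventionalized cells, against 30.8 and 127.3 in germ-free cells. In each of the 3 genes the groups overlapped, and each lay under the signal filter. Their second probe sets, where present, were below background on all arrays. That of Pla2g2f read 103.2 and 19.1 in conventionalized cells, against 14.7 and 4.4 in germ-free cells. That of Pla2g2d (1454157_a_at) read 113.7 and 22.8 in conventionalized cells, against 67 and 84.0 in germ-free cells. No difference is given for family probe sets below background on all arrays.

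Pla2g10, a potent phospholipase known in mice from colon epithelium and sperm, gave steadier values near background. It read 226.7 and 368.5 on the conventionalized arrays, against 245.0 and 251.6 on the germ-free arrays. The germ-free values lay between the conventionalized ones, and the difference was 0.20 ± 0.55 (limma adjusted p = 0.999; 95% interval -0.88 to 1.28). It turned to -0.12 without conventionalized replicate 2.

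Pla2g1b, the digestive phospholipase of the exocrine pancreas, stayed below background at all 4 of its probe sets. The standing one read 122.8 and 18.9 on the conventionalized arrays, against 140.3 and 12.4 on the germ-free arrays, so the duplicates differed far more than the pools. A second (1437015_x_at) read 20.4 and 133.4 in conventionalized cells, against 10.9 and 7.1 in germ-free cells. Another (1433949_x_at) read 19.6 and 25.6 in conventionalized cells, against 38.5 and 2.9 in germ-free cells. The last (1433948_at) read 3.8 and 12.8 in conventionalized cells, against 53.5 and 1.3 in germ-free cells. The suffix x marks probes that can bind other transcripts. Of 12 measured markers of exocrine pancreas, 0 were above background on both conventionalized arrays and 1 on both germ-free arrays.

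The 2 group XII genes differed in detection. Pla2g12b, a family member without catalytic activity that mouse liver needs to secrete triglyceride-rich lipoproteins, was measured well. Its probe set (1419614_at, gene identifier 69836) read 2687 and 3111 on the conventionalized arrays, against 2813 and 3584 on the germ-free arrays. The groups overlapped, with duplicates 0.21 apart in conventionalized and 0.35 apart in germ-free cells on the log2 scale. The difference was -0.13 ± 0.44 (limma adjusted p = 0.999), with a 95% interval of -1.0 to 0.73. Absorptive enterocyte markers lay below 0 in 12 of 14, with 2 called lower and a median of -0.53, which ran from -0.90 to -0.12 with 1 array left out. The interval of Pla2g12b holds these medians. It also holds 0 and the goblet median of 0.68, so it does not tell cell types apart. The share of the Pla2g12b signal that came from enterocytes was not tested. Pla2g12a, an atypical and weakly active enzyme, read 170.3 and 54.9 in conventionalized cells, against 38.1 and 96.5 in germ-free cells, below background throughout.

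Across the family, 4 of the 9 standing probe sets were tested, those of Pla2g2a, Pla2g5, Pla2g10 and Pla2g12b, and 1 of the 4 was called. Fitted without the filter, 1 of 14 probe sets was called, beside 0.147% of all 45037. The groups did not overlap at 1 of 9 standing probe sets, beside 31.1% of all probe sets. They also did not overlap at the dim second probe sets of Pla2g1b and Pla2g2f, both below background on all arrays and not called by limma in the fit without the filter. Counted over all family probe sets, the groups did not overlap at 3 of 14, again beside 31.1% of all.

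**Figure D4:**
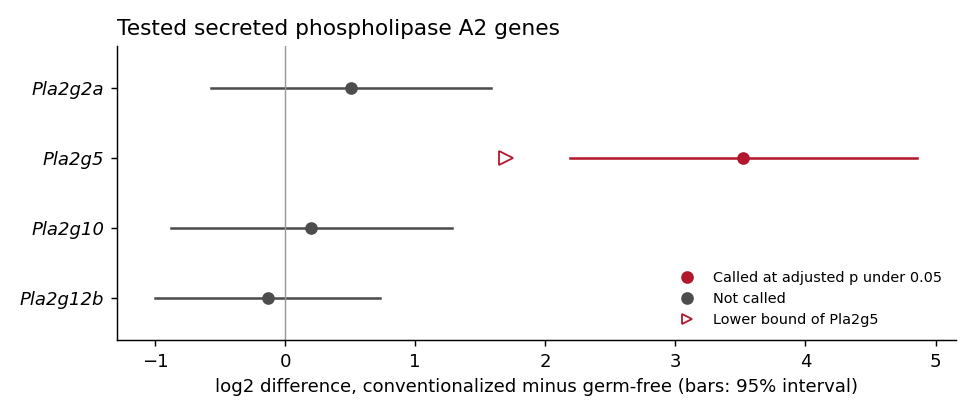
Difference in log2(signal + 32), conventionalized minus germ-free, with 95% intervals, for the 4 tested genes. The open triangle is the lower bound of Pla2g5, 1.70 on the log2 scale of the signal itself. The interval of Pla2g5 (red, 2.19 to 4.86) lies above 0, and the intervals of Pla2g2a, Pla2g10 and Pla2g12b span it.

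Genes that act beside the secreted enzymes gave no call. Of 81 such genes listed, 72 were measured and 47 tested, and limma called 0, with 1 at an unadjusted p under 0.05. Of the 47, 21 lay above 0 and 26 below, with a median of -0.08, and 11 were above background on no array. Among all 12113 genes tested, 13 were called higher and 30 lower, 50% lay above 0 and the median was 0.00. Pla2r1, the receptor that binds secreted phospholipases, read 45.1 and 321.4 on the conventionalized arrays, against 180.0 and 61.6 on the germ-free arrays, below background on all 4.

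Intracellular phospholipases A2 and those that break down platelet-activating factor had 4 of 8 tested members above 0 and a median of 0.07. Among the 4, Pla2g4e, named after its values were seen, was above background on no array. Pla2g4a, the cytosolic enzyme that releases arachidonic acid, read 633.3 and 583.7 in conventionalized cells, against 291.5 and 487.2 in germ-free cells, without overlap. Its difference of 0.64 ± 0.47 was not called (limma adjusted p = 0.999). Pafah2, which hydrolyses platelet-activating factor, differed by 0.22 ± 0.42. Pafah1b2 differed by -0.08 ± 0.48 and Pafah1b3 by -0.18 ± 0.49.

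Enzymes of prostaglandin and thromboxane metabolism lay mostly below 0, in 6 of 7 tested genes (median -0.51). Ptges, below 0, and Ptgds, above 0, were above background on no array, so their sign carries no measured change. Both were named after their values were seen. By limma 0 of the 7 genes were called and 0 had an unadjusted p under 0.05. Hpgd, which inactivates prostaglandins, differed by -0.57 ± 0.42, and Ptgr2, a reductase of prostaglandin breakdown products, by -0.67 ± 0.45. Ptgr1 differed by -0.51 ± 0.43 and Cbr1 by -0.25 ± 0.43. Ptgs2, the inducible cyclooxygenase, was under the signal filter at 11.1 and 167.2 in conventionalized cells, against 138.6 and 21.9 in germ-free cells. It was named after its values were seen. Of 5 lipoxygenase and leukotriene enzymes 3 lay above 0, with a median of 0.08. Among the 3, Alox12 was above background on no array. Lta4h, which makes leukotriene B4, differed by -0.36 ± 0.42.

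Receptors for eicosanoids and platelet-activating factor lay above 0 in 5 of 6 (median 0.30), and the exception was Ptger4, a prostaglandin E2 receptor, at -0.67 ± 0.42. The 5 others were above background on no array, so their sign carries no measured change. Acyltransferases that rebuild phospholipids from lysophospholipids lay above 0 in 3 of 10 (median -0.50). The brightest, Agpat4, was at 0.54 ± 0.44, Lclat1 at -0.59 ± 0.42, Agpat2 at -0.46 ± 0.43 and Lpcat3 at -0.55 ± 0.43. Lysophospholipases and related enzymes lay above 0 in 2 of 8 (median -0.18). Abhd4 was at -0.22 ± 0.44, Lypla1 at -0.49 ± 0.43, Lypla2 at 0.10 ± 0.42 and Pnpla6 at 0.17 ± 0.44. Leaving out 1 array moved the median of the prostaglandin list between -0.50 and -0.09 and that of the acyltransferase list between -0.62 and -0.16. The receptor median ran from -0.25 to 0.80, and the medians of the 5 other lists also changed sign with 1 array left out. Those of the lipoxygenase list (-0.01 with quantile normalization and -0.02 with median centring) and of the intracellular list (-0.03 with median centring) changed sign with another scaling too.

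**Figure D5:**
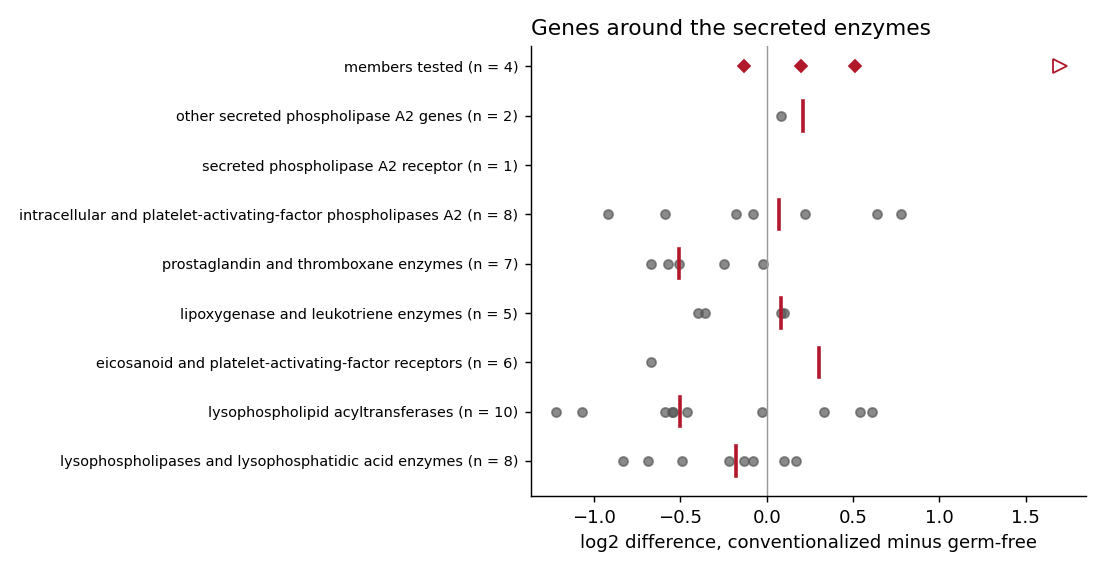
Difference in log2(signal + 32), conventionalized minus germ-free, of tested genes (grey points) in 8 lists of genes around the secreted enzymes, with the list median over all its tested genes as a red bar. The 11 genes above background on no array have no point, and the receptor Pla2r1, among them, no bar. Red diamonds are Pla2g2a, Pla2g10 and Pla2g12b. The open triangle is the lower bound of Pla2g5, 1.70 on the log2 scale of the signal itself. Of the 8 lists 0 genes were called.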

How the data were processed

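Per the labels' protocols, total RNA from captured cells was pooled, amplified with the Arcturus RiboAmp HS kit and labelled with biotin. The authors deposited 1 linear signal intensity per probe set and array, whose software and background step the sources used here do not give. Trimmed of the top and bottom 2%, the values of every array averaged 250, and so they were taken as scaled by the authors. The platform annotation of 2016 gave the gene names, checked against the GRCm38.p6 gene table: 34958 probe sets named 1 gene, 932 several and 9211 none, and 34754 found their identifier. Intensities became log2(intensity + 32), which understates changes of dim probe sets. The 64 control probe sets and those with a mean of 113.9 or less, the median, were left out, and 22491 were tested with limma 3.58.1 in R 4.3.3 (lmFit, eBayes with a variance trend, Benjamini-Hochberg over all tested). The prior degrees of freedom were infinite, so probe sets of like signal share a standard error. Two-sided p-values are given throughout. Tested on simulated data of 22491 probe sets, this fit found 1, 11, 36 and 44 of 50 that had been shifted by 1, 2, 3 and 4 on the log2 scale, with 5 false calls. The simulated errors were independent and normal, with a variance that followed signal, as the fit assumes. The false calls therefore do not measure the error rate on these uneven arrays. Arrays have no read depth, and their number limits the precision. Named were all member probe sets, the 3 genes most like Pla2g2a, and, of each gene list, up to 4 members (called ones, otherwise the brightest). Lyz1 was added as the defining Paneth marker. Members and lists were chosen with earlier results of these data known. The replicate numbers in the labels are not stated to mark a shared batch, so arrays were not paired. Alternatives were other pseudocounts, filters, scalings, variance models, background levels and the arrays left out in turn.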

Additional observations from a re-analysis of the deposited data

How the results depend on the processing

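Probe sets called over the whole array numbered 75 in the reported fit, 34 with quantile normalization, 21 with median centring, 0 without the variance trend (975 at an unadjusted limma p under 0.05) and 41 to 213 with 1 array left out. The call on Pla2g5, the only called member, was lost in the brightest 25% and without the trend, where its log2 difference was 3.52 and the count of called members 0. With 1 array left out that count was 0 to 1 and the difference 3.04 to 4.01; the lone array left in a group is assumed to vary like the others. With the replicate number as a replicate block, 30 probe sets were called and Pla2g5 kept 3.52 ± 0.76 (limma adjusted p = 0.00645). Deviations of same-numbered arrays correlated at -0.132, so the numbers are not taken to pair the arrays. Of the members not called, Pla2g2a reached -0.14 to 1.16, Pla2g10 -0.12 to 0.51 and Pla2g12b -0.31 to 0.04 with 1 array left out, and none was called in any alternative. Median centring moved the median of all tested probe sets to -0.10. Members above background on both arrays numbered 4 (conventionalized) and 3 (germ-free) against the array median, and 3 and 2 against the 90th percentile of olfactory receptor probe sets. With 1 array left out they numbered 2 to 4 (conventionalized) and 1 to 4 (germ-free). The bound on the Pla2g5 fold was 3.26 with the 95th percentile, 4.04 with the 90th and 2.61 with the 99th, all computed after seeing the data. The causes of these changes were not tested.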
